A study of Anas platyrhynchos with 2 samples.

Results

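The miR-221 and miR-222 miRNAs were followed in small RNA libraries of the duck duodenum. The members were the mature miRNAs whose name, without species prefix and arm, is miR-221, miR-222, miR-222a or miR-222b. This rule found 3 of the 288 listed miRNAs, namely miR-222a, miR-221-3p (gga-miR-221-3p in full, with the prefix for chicken) and miR-221-5p, which come from 2 hairpins. All 3 passed the minimum of 50 counts over both libraries that was used for ratios.

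The transported library came from duodenal tissue of female ducks of the Jingjiang breed, kept for eggs, that spent 8 h in a vehicle moving at 40 to 70 km per h on ordinary and bumpy roads, and the labels describe the tissue as mucosa damaged by transport stress. The control library is from ducks that were put in the same kind of carrying case and not transported. All 20 ducks of the study were 1 day old, and the sources used here do not say how many contributed to each library. The table calls its libraries CT and CC. CT was read as transported and CC as control from the last letter, which no label spells out, so the libraries are called CT and CC below, and under the other reading all directions relative to transport would turn round. Since each group is 1 library, differences could not be checked on replicates and no p-values are given. Each interval below is an exact 95% interval that covers counting error only, and so compares these libraries and not the conditions.

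MicroRNAs are short RNAs cut from a hairpin precursor, whose bases 2 to 8, the seed, pair with target messages and lower their output. In mammals miR-221 and miR-222 lie close together on the genome, share their seed and are known for repressing the cell cycle inhibitor p27 and the receptor KIT. There they are studied in endothelial cells, vascular smooth muscle and blood cell precursors, and they are induced in inflammation and in proliferating cells.

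The mature sequences are shown because the comparison rests on miRNAs that share a seed and differ behind it. They are written 5′ to 3′ as the deposited table gives them, with the seed in capitals.
miR-222a: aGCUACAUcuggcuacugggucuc
miR-221-3p: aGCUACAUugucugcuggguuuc
miR-221-5p: aACCUGGCauacaauguagauuucugu

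miR-222a, of 24 nt, and miR-221-3p, of 23 nt, were identical over the first 8 bases, which hold the seed. In a global alignment they had 20 identical positions, 3 mismatches and 1 gap, an identity of 83.3%. Without the gap they differed at 12 positions. No other miRNA of the table had the seed of this pair, and none had the seed of miR-221-5p, which comes from the opposite arm. The nearest match was miR-187-5p, with bases 2 to 7 of the seed (capitals below) but not the eighth.
miR-187-5p: gGCUACAacacaggacauggga
It was rare, with 5 counts in CT and 2 in CC. At 27 nt miR-221-5p was among the 2 miRNAs of the table with at least 27 nt, whereas the median length was 22 nt.

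The hairpins show where each mature sequence lies, with the mature parts in capitals.
mir-222a hairpin: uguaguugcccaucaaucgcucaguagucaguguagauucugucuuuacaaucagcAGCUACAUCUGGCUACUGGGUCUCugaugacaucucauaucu
mir-221 hairpin: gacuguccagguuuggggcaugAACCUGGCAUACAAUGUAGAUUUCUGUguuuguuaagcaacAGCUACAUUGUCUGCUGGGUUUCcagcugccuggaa
The mir-222a hairpin has 98 bases and its mature sequence takes bases 57 to 80, on the 3′ side, although its name gives no arm. The mir-221 hairpin has 99 bases, with miR-221-5p at bases 23 to 49 and miR-221-3p at bases 64 to 86. In the minimum energy fold computed here, at -34.5 kcal per mol, 18 of the 24 bases of miR-222a were paired, with bases 19 to 36 of the hairpin. In the mir-221 fold, at -42.4 kcal per mol, 22 of the 23 bases of miR-221-3p and 22 of the 27 bases of miR-221-5p were paired. A mature miRNA of the 5′ arm of mir-222a is not analysed here, so arm balance is given for mir-221 only. These are sequences with chicken names. Whether duck reads were assigned by them is not stated, and reads that differ from them could be lost.

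**Figure D1:**
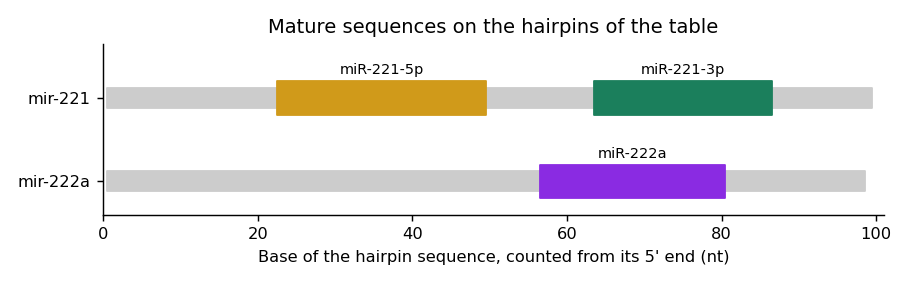
Position of the mature sequences (coloured) on the mir-221 and mir-222a hairpins (grey), in bases from the 5′ end. miR-221-3p and miR-222a lie on the 3′ side, and miR-221-5p lies on the 5′ side of mir-221.

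The depth was 5272666 counts in CT and 5772509 in CC, and levels are given in CPM, the counts per 1e6 counts of the library. A count of 0 would allow up to 0.569 CPM in CT and 0.520 CPM in CC, far under the level of each member.

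Of the pair with the shared seed, miR-222a had the higher counts in both libraries and differed more between them. It had 2434 counts in CT, against 3741 in CC. These are levels of 462 CPM in CT (443 to 480.3) and 648 CPM in CC (627 to 669). The intervals did not overlap, and CT was the lower library by 1.40-fold (1.33 to 1.48), a log2 ratio of CT to CC of -0.49 (-0.56 to -0.42).

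miR-221-3p, the abundant arm of its hairpin, was close to equal. It had 2291 counts in CT and 2620 in CC. Its levels were 435 CPM in CT (417 to 453) and 454 CPM in CC (437 to 472), with overlapping intervals. Its log2 ratio was -0.063 (-0.14 to 0.019). This interval moved below 0 with TMM scaling (-0.11, -0.19 to -0.027), with median-of-ratios size factors (-0.13, -0.21 to -0.046) and with totals over the chicken-named miRNAs (-0.16, -0.24 to -0.074).

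miR-221-5p, the less abundant arm, was close to equal as well. It had 776 counts in CT and 806 in CC. Its levels were 147 CPM in CT (137 to 158) and 139.6 CPM in CC (130.2 to 149.6), again with overlapping intervals. Its log2 ratio was 0.076 (-0.068 to 0.22), and it was -0.017 (-0.16 to 0.13) with totals over the chicken-named miRNAs. The arms of miR-221 therefore lay on either side of a ratio of 1, and together they had 582 CPM in CT and 594 CPM in CC, a log2 ratio of -0.029 (-0.10 to 0.042).

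In a bulk tissue library, fewer cells of a type and fewer copies per cell cannot be told apart. Since CPM is a share of the library, neither can be told from a rise of other miRNAs. This applies to each of these levels.

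**Figure D2:**
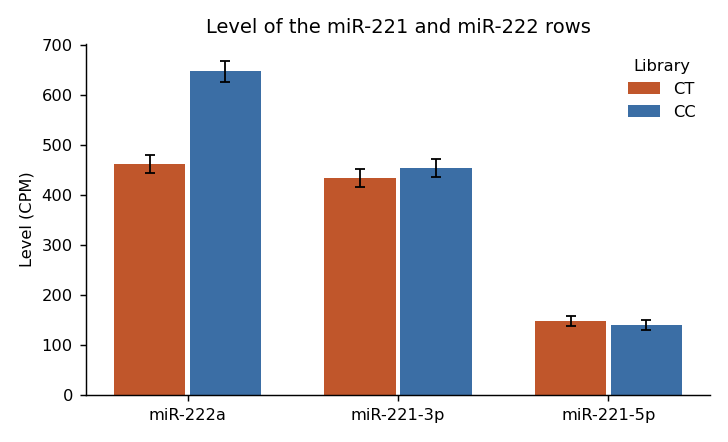
Level in CPM of miR-222a, miR-221-3p and miR-221-5p in the CT library (left bar) and the CC library (right bar), 1 library each, with exact 95% counting intervals. Only the intervals of miR-222a are apart, at 462 CPM in CT and 648 CPM in CC.

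Ratios within a library do not depend on how libraries are scaled. They compare counts, and whether different sequences were captured equally well was not tested. In CT the pair with the shared seed was nearly even, with 1.06 counts of miR-222a for each count of miR-221-3p (1.003 to 1.13). In CC miR-222a was ahead, with 1.43 counts for each (1.36 to 1.502). The ratio in CT was thus 0.744 times that in CC (0.689 to 0.803), a log2 difference of -0.43 (-0.54 to -0.32). miR-222a took 51.5% of the counts of this pair in CT (50.1 to 52.9%) and 58.8% in CC (57.6 to 60.02%).

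Against the other arm of miR-221 the difference had the same direction. There were 3.14 counts of miR-222a for each count of miR-221-5p in CT (2.89 to 3.405) and 4.64 in CC (4.30 to 5.01). Against both arms together the ratio was 0.794 in CT (0.752 to 0.837) and 1.09 in CC (1.04 to 1.14). Since the other arm of mir-222a is not analysed here, this ratio does not show which hairpin had more counts. Of all counts of the 3 miRNAs, miR-222a held 44.2% in CT (42.9 to 45.6%) and 52.2% in CC (51.03 to 53.4%). miR-221-3p held 41.6% in CT (40.3 to 43.0%) and 36.6% in CC (35.4 to 37.7%). The remaining 14.1% in CT (13.2 to 15.1%) and 11.2% in CC (10.5 to 12.0002%) were miR-221-5p.

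Within the mir-221 hairpin the balance of the arms was close in the libraries. The 5p arm took 25.3% of the hairpin's counts in CT (23.8 to 26.9%) and 23.5% in CC (22.1 to 24.98%), and these intervals overlap. The ratio of the 3p to the 5p arm was 2.95 in CT (2.72 to 3.21) and 3.25 in CC (3.003 to 3.52). The ratio in CT was 0.908 times that in CC (0.810 to 1.02).

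Both arms of this hairpin were well filled. In the 70 hairpins that have a 5p and a 3p row and reach 50 counts, the less abundant arm took a median share of 0.686% in CT and 0.511% in CC. A less abundant arm with a share at least as large as that of mir-221 was found in 7 hairpins in CT and in 10 in CC, mir-221 itself included. The difference of 1.78 percentage points between the libraries was reached or passed by 15 of the 70. Several of these had few counts and overlapping intervals, such as mir-301b, with 36 counts in CT and 31 in CC. The intervals of CT and CC were apart for 9 of the 70 hairpins, and mir-221 was not among them. On the log2 scale, where both arms had at least 50 counts, the arms of mir-221 differed in their ratio of CT to CC by 0.14. That size was reached by 18 of 23 hairpins, itself included, and the median was 0.38.

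**Figure D3:**
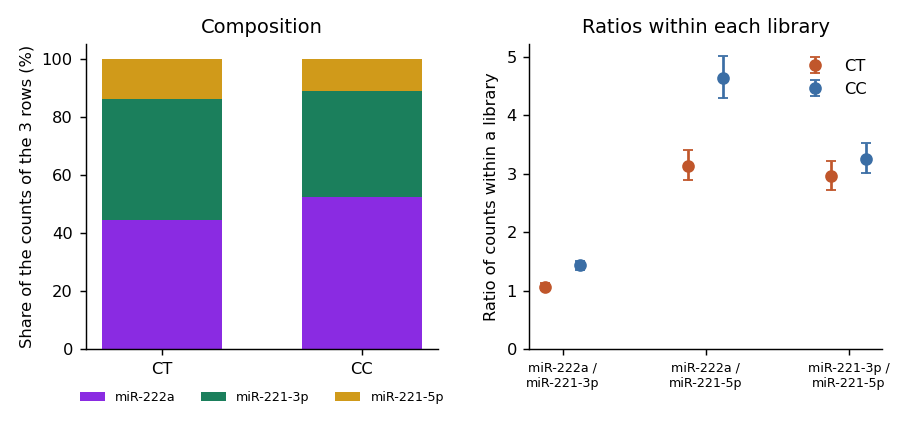
Left, share in percent of the counts of the 3 miRNAs held by each, in CT and CC. Right, ratios of counts within each library with exact 95% counting intervals. The ratio of miR-222a to miR-221-3p is 1.06 in CT and 1.43 in CC, while the intervals of the arm ratio of miR-221 overlap.

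The miRNAs lay in the upper part of the list by abundance, with similar places in both libraries. miR-222a ranked 55th in CT and 48th in CC among the 288 miRNAs, miR-221-3p ranked 57th in CT and 55th in CC, and miR-221-5p ranked 73rd in each. Summed over the shared seed, the pair had 4725 counts in CT and 6361 in CC. This was 896 CPM in CT and 1102 CPM in CC, lower in CT by 1.23-fold (1.18 to 1.28). Among the 220 seeds of the table this sum ranked 32nd in CT and 31st in CC. It made up 0.0896% of the CT counts and 0.110% of the CC counts.

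Among all miRNAs with at least 50 counts, 11 of 149 were at least 2-fold apart between the libraries (7.38%). None of the 3 members was, which at this background says little for a set of this size. At least 1.5-fold apart were 33 of the 149 (22.1%), again with no member among them. The interval excluded a ratio of 1 for 102 of the 149 (68.5%), and for miR-222a of the 3 members. For 50 of the 149 (33.6%) it did so with CT lower. Such an interval was thus common and does not single miR-222a out. Over the 149 the log2 ratio had a median of 0.021 (interquartile range -0.25 to 0.36), which puts miR-222a outside the middle range and both arms of miR-221 inside it. Counted from the lowest ratio, miR-222a stood at place 18, miR-221-3p at 63 and miR-221-5p at 84. A log2 ratio at least as far from 0 as that of miR-222a, in either direction, was found for 46 of the 149 (30.9%). For scale, miR-217-5p, an miRNA of the exocrine pancreas, had a log2 ratio of 5.73, and miR-375, of endocrine cells, had 1.48.

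**Figure D4:**
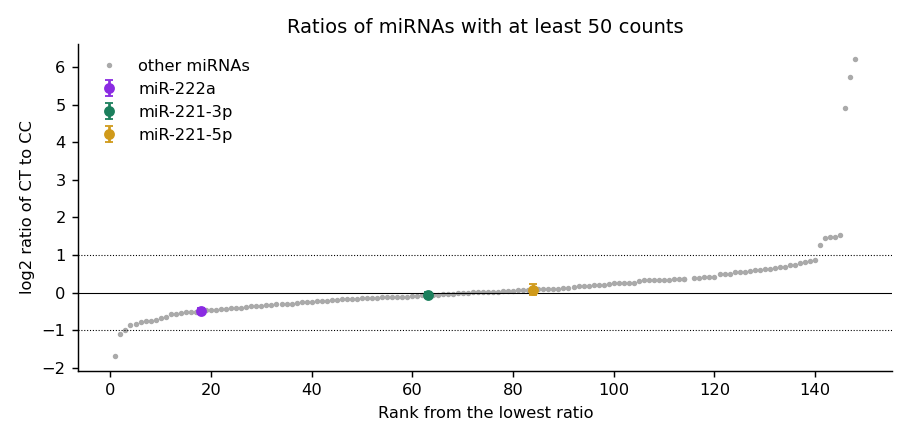
log2 ratio of CT to CC against its rank for miRNAs with at least 50 counts, with dotted lines at 2-fold. miR-222a is at place 18 from the lowest with -0.49, miR-221-3p at 63 and miR-221-5p at 84. miR-216c, with no counts in CC, is not drawn.

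Unequal ratios within a seed family were usual in these libraries. Of the 18 seeds shared by at least 2 miRNAs with enough counts, the gap between the highest and the lowest log2 ratio had a median of 0.44 and ran between 0.094 and 1.24. The gap of miR-221-3p and miR-222a, 0.43, was reached or passed in 11 of the 18, their own included. In some of these, such as the families of miR-130a-3p and of miR-15b-5p, the intervals of the highest and the lowest ratio overlapped. The gaps were smaller for miR-103-3p with miR-107-3p (0.094) and for miR-181a-5p with miR-181b-5p (0.12). The gap was close to that of miR-221-3p and miR-222a for miR-99a-5p with miR-100-5p (0.44). A gap between extremes tends to widen with the number of miRNAs, and these families hold 2 to 8. Among families of 2, a gap wider than that of miR-221-3p and miR-222a was found only in 2 cases. These were miR-99a-5p with miR-100-5p and miR-18a-5p with miR-18b-5p (0.57, with overlapping intervals). The widest gap, that of the 8 miRNAs with the let-7 seed, rested on the predicted miRNA novel_130, with 52 counts in CT and 31 in CC, and was 0.45 without it.

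**Figure D5:**
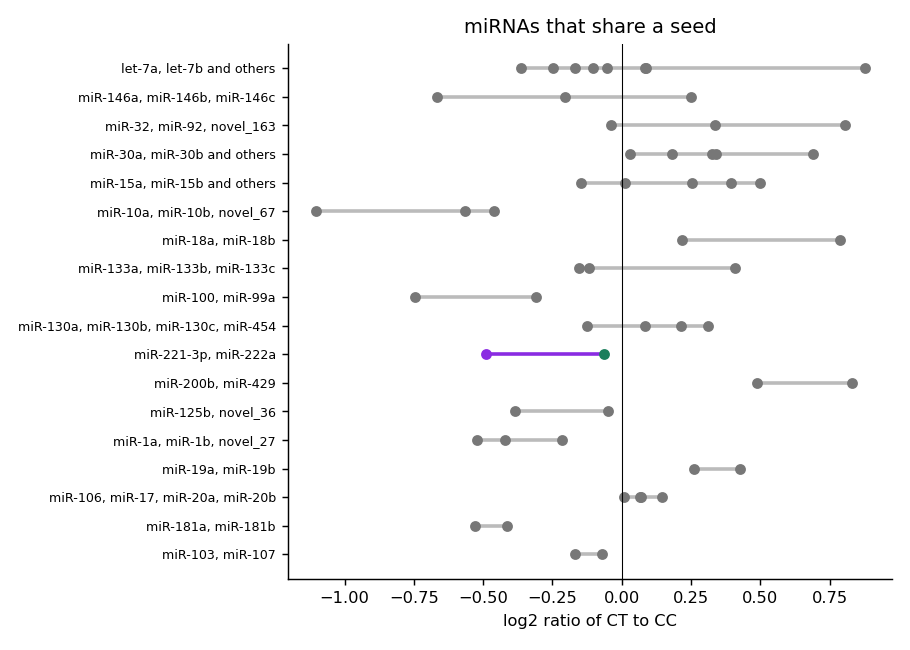
log2 ratio of CT to CC of miRNAs that share a seed, 1 point per miRNA and a line from the lowest to the highest, for the 18 seeds with at least 2 miRNAs of at least 50 counts. The families are ordered by the width of the gap, and miR-221-3p with miR-222a (coloured, 0.43) lie near the median of 0.44. Families hold 2 to 8 miRNAs, and gaps tend to be wider in larger ones.

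The miRNAs with a mean level nearest to a member did not share a direction. Nearest to miR-222a were miR-181a-5p, miR-429-3p, miR-200a-5p, novel_31 and novel_27, where the names with novel_ are predicted miRNAs. Of these miR-181a-5p, at 476 CPM in CT and 635 CPM in CC, had a log2 ratio of -0.41, and miR-429-3p, of epithelium, at 653 CPM in CT and 466 CPM in CC, had 0.49. The others had -0.13, -0.40 and -0.21 in the order given. Nearest to miR-221-3p were miR-2954, at 437 CPM in CT and 436 CPM in CC, miR-9-5p, miR-30e-3p, miR-454-3p and miR-222a. Their log2 ratios ran between -0.49 and 0.21. Nearest to miR-221-5p were miR-10b-5p, miR-16-5p, miR-126-5p, miR-181b-5p and miR-214, with log2 ratios between -0.74 and 0.25.

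By the ratio alone, over these 2 libraries, the miRNAs most like miR-222a were miR-24-3p (-0.50), miR-1416-5p (-0.51), miR-9-5p, miR-10a-5p (both -0.46) and miR-1b-3p (-0.52). With 2 libraries, such a likeness is a similar single number and no shared pattern.

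Lists of miRNAs of the cells and processes in which miR-221 and miR-222 are studied are set beside all 149, with their median of 0.021, of which 70 (47.0%) were lower and 79 (53.0%) higher in CT, and 50 (33.6%) were lower with an interval that excluded a ratio of 1. The list entry miR-222 was matched to miR-222a. Of the endothelial list 7 of 7 members had enough counts, 6 lower and 1 higher in CT, against 47.0% lower over all 149. Without the pair itself 4 of 5 were lower. For 5 of the 7 the interval excluded a ratio of 1 with CT lower, against 33.6% over all 149. Its median log2 ratio was -0.46, with and without the members of the pair. miR-126-3p, the endothelial miRNA of the list with the widest difference, had 5298 CPM in CT and 9134 CPM in CC, a log2 ratio of -0.79. The less abundant arm of its hairpin, miR-126-5p, differed less. It had 153 CPM in CT and 167 CPM in CC, a log2 ratio of -0.13 (-0.27 to 0.0071). miR-10a-5p, a regulator of endothelial inflammation, had 7623 CPM in CT and 10484 CPM in CC. miR-130a-3p, the exception, had 34 counts in CT and 30 in CC. The summed level of this list was 19195 CPM in CT and 27409 CPM in CC. Its largest part was miR-10a-5p, and miR-100-5p added 5249 CPM in CT and 6503 CPM in CC. From which cells of the tissue the members of this list came was not tested.

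In the smooth muscle list, 8 of 10 names were matched, and 7 were lower and 1 higher in CT, against 47.0% lower over all 149. The median was -0.25, and for 5 of the 8 the interval excluded a ratio of 1 with CT lower, against 33.6% of all 149. miR-143 and miR-145 of that list were not matched by name. The matched members were miR-1a-3p, miR-1b-3p, miR-133a-3p, miR-133b, miR-133c-3p, miR-24-3p, miR-26a-5p and miR-204. From which cells of the tissue they came was not tested. The smooth muscle list summed to 14856 CPM in CT and 19288 CPM in CC, with neither of these 2 miRNAs in the sum. Its largest part was miR-26a-5p, at 7481 CPM in CT and 9373 CPM in CC, followed by miR-1a-3p, at 3832 and 5128 CPM. The higher member was miR-133b, with a log2 ratio of 0.41 (-0.0091 to 0.83). In the inflammation list 8 of 9 members had enough counts, 7 lower and 1 higher in CT, or 5 lower and 1 higher without the pair, against 47.0% lower over all 149. Its median of -0.33 did not move without the pair. Among the lower ones miR-146b-5p had 9810 CPM in CT and 15584 CPM in CC. Another of them, miR-21-5p, raised in inflamed tissue, had 66302 CPM in CT and 76603 CPM in CC. The higher one, miR-146a-5p of the same family as miR-146b-5p, had 66.9 CPM in CT and 56.3 CPM in CC, a log2 ratio of 0.25 (0.028 to 0.47), whose interval reached below 0 with TMM, size factors and totals over chicken-named miRNAs. miR-155 had 1 count in each library.

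In the list of miRNAs reported to target p27 or the related inhibitor p21, 4 of 8 members were higher and 4 lower in CT. This is close to the 53.0% higher and 47.0% lower over all 149. Of the list, 3 were higher with TMM scaling, 2 with size factors and 1 with totals over chicken-named miRNAs. Its median log2 ratio was -0.028, and it was 0.036 without the pair. For 3 of the 8, miR-222a, miR-24-3p and miR-181a-5p, the interval excluded a ratio of 1 with CT lower. This is close to the 33.6% over all 149. All 3 also stand in other lists given here, so the lists are not independent. miR-222a is in the endothelial and inflammation lists, miR-24-3p in that of smooth muscle and miR-181a-5p in that of white blood cells. miR-24-3p had 723 CPM in CT and 1024 CPM in CC. The 4 higher members belong to the miR-17 family, which represses p21, and had log2 ratios of at most 0.14, of which up to 3 turned lower under the scalings just named. Of these members only the interval of miR-106-5p excluded a ratio of 1 (log2 ratio 0.14, 0.029 to 0.26), and it reached below 0 with TMM (-0.016), size factors (-0.036) and totals over chicken-named miRNAs (-0.064).

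Lists for other cell types were compared in the same way, and the cells themselves were not measured. The white blood cell list had 3 of 4 members lower in CT, against 47.0% over all 149, and a sum of 715 CPM in CT and 932 CPM in CC. Most of that sum was miR-181a-5p with miR-181b-5p. miR-142-3p, a leukocyte marker, went the other way, with 81.4 CPM in CT and 64.8 CPM in CC. Its log2 ratio was 0.33 (0.13 to 0.53). The lowest log2 ratio of this list, and of the inflammation list, was that of miR-223, at -0.98 (-1.46 to -0.51). It had 56 counts in CT and 121 in CC. For red blood cells, miR-451 with miR-144 summed to 1.90 CPM in CT and 3.29 CPM in CC, both under the minimum. The intestinal epithelium list had 6 of 6 matched members higher in CT, against 53.0% over all 149, with a median log2 ratio of 0.62. It summed to 508664 CPM in CT and 452894 CPM in CC. Most of this was miR-215-5p, at 435164 CPM in CT and 405612 CPM in CC, a log2 ratio of 0.10. The less abundant arm miR-200a-5p, not counted in this list, was lower in CT (log2 ratio -0.13, -0.20 to -0.054). The pancreas list had 5 of 5 members at least 2-fold higher in CT, against 7.38% of all 149 at least 2-fold apart in either direction. It summed to 5920 CPM in CT and 1260.5 CPM in CC. Most of both sums was miR-375, at 3365 CPM in CT and 1206 CPM in CC, whereas miR-217-5p had 1996 CPM in CT and 37.6 CPM in CC. The pancreas member miR-216c had 0 counts in CC, and no other matched member of these lists was at 0 in either library. The directions in all lists but that of p27 and p21 held under the 4 other scalings. These lists differed between the same libraries as miR-222a, some in the other direction, and their part in its difference was not tested.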

How the data were processed

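Each group gave 1 duodenal small RNA library. Per the labels' protocols, RNA of 20 to 30 nt was cut from a 15% gel loaded with 10 µg of total RNA extracted with Trizol. The authors deposited read counts per mature miRNA and, per the file headers, TPM values. The deposited TPM values equal counts per 1e6 counts of the table within 4.3e-05, with no length term, and are called CPM. For the aligner, database release and genome build, nothing is stated (not given in the sources used here). Of the 288 miRNAs 246 have chicken names and 42 are predicted.

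CPM was computed from the deposited counts over the totals of the table. Shares have exact binomial (Clopper-Pearson) 95% intervals. Ratios between libraries have exact conditional intervals, and ratios of ratios the conditional odds ratio. No source mentions molecular identifiers, and intervals and the floor of 3 counts cover counting error only. Ratios needed 50 counts over both libraries. A list member was represented by its more abundant arm, and miR-216c entered its list at the floor. The named miRNAs are the members, those with the same seed, the 5 nearest in level to each member, the 5 nearest in ratio to miR-222a, list members, miR-217-5p and miR-375. miR-187-5p, with part of the seed, and the seed families named for their small, near or wider gaps were chosen after their values were seen. The members and lists were chosen with earlier results of these data known.

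Scaling was repeated with TMM in edgeR 4.0.16, with size factors of DESeq2 1.42.0 (median of ratios), with totals over chicken-named miRNAs and with totals that leave out the 10 leading miRNAs. A rule of 1.5-fold, a pseudocount of 5 CPM and other minimums were also tried. Folds were computed with RNAfold 2.7.2, alignments with Biopython 1.88, and statistics with Python 3.11.15, scipy 1.17.1, numpy 2.4.6, pandas 2.3.3 and R 4.3.3. Figures were drawn with matplotlib 3.10.9.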

Additional observations from a re-analysis of the deposited data

How the results depend on the processing

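Scaling shifts all log2 ratios alike, by -0.045 (TMM), -0.065 (size factors), 0.059 (10 leading miRNAs left out) and -0.093 (chicken-named totals), so ranks and ratios within a library do not move. miR-222a stayed lower in CT in each, between -0.58 (chicken-named totals) and -0.43. miR-221-3p lay between -0.16 (chicken-named totals) and -0.0034. Under a minimum of 500 counts 3 miRNAs were at least 2-fold apart, against 46 where 1 count per library sufficed, and 33 passed the 1.5-fold rule. With the more abundant arm of each hairpin alone, miR-222a held 51.5% in CT and 58.8% in CC. The median of the p27 and p21 list was 0.032 with the 10 leading miRNAs left out, and 0.0076 with all arms or with no minimum. The endothelial median was -0.22 with all arms. The inflammation median was -0.21 with all arms, with no minimum and with a minimum of 500 counts. The smooth muscle median was -0.37 with a minimum of 500 counts. No paired analysis was possible because each group has 1 library. Depth does not limit the members, but the spread between ducks and library preparations is unknown.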

Other observations

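Genes that lie next to each other can be copied as a single transcript, so the gap between miR-222a and miR-221-3p was set beside other neighbours. The list holds pairs that neighbour each other in the human genome and was written after the values were seen. Whether they do so in the duck was not examined, nor whether a miRNA of the list also comes from a further locus. The more abundant arm stood for each miRNA, and 16 pairs had enough counts, that of miR-222a with miR-221-3p included. The absolute difference of the log2 ratios of CT to CC had a median of 0.37 and ran between 0.12 and 1.31. The pair of miR-222a and miR-221-3p, at 0.43, was the sixth widest, and 10 pairs were closer. Of the wider pairs, the intervals overlapped for miR-216b with miR-216a (1.31), miR-193b-3p with miR-365-3p (0.92) and miR-216a with miR-217-5p (0.49). Here miR-216a had 204 counts in CT and 3 in CC. The intervals were apart for miR-99a-5p with let-7c-5p (0.58) and for miR-215-5p with miR-194. miR-27b-3p and miR-24-3p differed by nearly as much (0.42), with log2 ratios of -0.080 and -0.50. miR-215-5p and miR-194, of intestinal epithelium, differed by 0.49 and were both higher in CT. Several of these pairs share a miRNA, so they are not independent.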
